A study of Mus musculus with 6 samples.

Results

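The genes described here are 6 markers of fetal-like intestinal epithelium, Clu, Ly6a, Anxa1, Anxa3, Anxa8 and Msln, out of 55416 genes measured by RNA-Seq in LDL- and PBS-treated organoids. They were chosen by name around Clu, with their difference between the treatments already known, so their values are given as a description and carry no test. Each symbol matched 1 Ensembl gene in GENCODE M39, and all 6 genes passed the filter on low values, a mean normalized count of at least 10 over the 6 libraries. The mean of the PBS-treated organoids alone was between 31.2 and 167 for these genes, so none passed the filter only through its LDL-treated values.

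Before birth, the gut epithelium lacks mature crypts, and in culture it grows as round spheroids rather than as budding organoids. Part of its gene expression returns in adult epithelium that repairs an injury, in cells that carry little of the program of crypt base stem cells. Clu encodes clusterin, a secreted chaperone that marks such damage-induced cells, and Ly6a encodes Sca-1, a surface protein held by a lipid anchor. Anxa1, Anxa3 and Anxa8 encode annexins, which bind phospholipid membranes in the presence of calcium, and Msln encodes mesothelin, another lipid-anchored surface protein that is best known from mesothelium.

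Crypts were taken from the duodenum and jejunum of 3 WT mice of the strain C57BL/6 and grown as organoids with 50 μg/ml low density lipoprotein (LDL) or with PBS for 5 days. The labels give no age or sex. Each mouse gave 1 LDL- and 1 PBS-treated library, and the libraries of a replicate number share an animal identifier, so that mice 1, 2 and 3 each form a pair. The libraries held 22061545 to 31073360 reads on genes, and normalized counts are reads on a gene after division by the size factor of the library. The LDL-treated library of mouse 1 stood apart in holding reads on 35781 genes, against 29285 to 32751 in the others. Its most read gene, Rn18s-rs5, held 7.62% of its reads, against 2.60% to 3.32% for the most read gene of each other library. In each mouse more genes held reads with LDL than with PBS, with the smallest difference in mouse 2 (29870 and 29285).

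Clu (ENSMUSG00000022037, chromosome 14, 66190200 to 66218999 on the plus strand of GRCm39) had the highest level of the 6 genes after LDL treatment. In PBS-treated organoids its normalized counts were 285, 32.3 and 185 in mice 1, 2 and 3. With LDL they were 10346.5, 931 and 7102 in the same mice. The lowest LDL-treated library lay above the highest PBS-treated one, and mouse 2 was the lowest of the mice in both treatments. Within a mouse, Clu was 36.3-fold, 28.8-fold and 38.4-fold higher with LDL. Its log2 fold change on the scale of normalized count plus 1 was 5.08 with a standard error (SE) of 0.11, the fifth highest among the 18459 genes tested. In bulk RNA, more cells that express a gene and more RNA of that gene per cell cannot be told apart.

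Msln (ENSMUSG00000063011, chromosome 17, 25967312 to 25985619 on the minus strand) followed the same order of libraries. Its normalized counts were 198, 28.6 and 132 with PBS. They were 3281, 304 and 2650 with LDL, so the groups did not overlap. The within-mouse difference was 16.6-fold, 10.6-fold and 20.1-fold, and the log2 fold change was 3.91 (SE 0.17.)

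Among the annexins, Anxa1 (ENSMUSG00000024659, chromosome 19, 20350792 to 20368374 on the minus strand) encodes a protein known for its part in resolving inflammation and in epithelial repair. Its normalized counts were 189, 22.4 and 112 with PBS and 2243, 197 and 1472 with LDL. The LDL-treated library of mouse 2 was thus barely above the PBS-treated library of mouse 1, although within mouse 2 the gene was 8.82-fold higher with LDL. Anxa3 (ENSMUSG00000029484, chromosome 5, 96940544 to 96993828 on the plus strand) had normalized counts of 157, 48.5 and 129 with PBS and 1823, 273 and 1500 with LDL. The within-mouse difference of Anxa3 was 11.6-fold, 5.63-fold and 11.7-fold. Gm42603, a gene model that shares 112 exon bases with Anxa3 on the same strand, had 12.2, 3.73 and 9.77 with PBS and 233, 22.7 and 103 with LDL, and how reads on the shared bases were assigned was not tested. Anxa8 (ENSMUSG00000021950, chromosome 14, 33807936 to 33822528 on the plus strand) was the only member whose groups overlapped. Its normalized counts were 52.1, 6.21 and 36.6 with PBS and 454, 30.0 and 348 with LDL. The LDL-treated value of mouse 2 was below the PBS-treated values of mice 1 and 3, and still 4.83-fold above the PBS-treated value of its own mouse. The log2 fold changes of Anxa1, Anxa3 and Anxa8 were 3.45, 3.18 and 2.81, with standard errors of 0.14, 0.21 and 0.25.

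Ly6a (ENSMUSG00000075602, chromosome 15, 74863840 to 74869880 on the minus strand) was the member with the least difference between mice in its response. It had normalized counts of 45.9, 6.21 and 41.5 with PBS and 456, 70.0 and 464 with LDL. Within a mouse it was 9.93-fold, 11.3-fold and 11.2-fold higher with LDL, and its log2 fold change was 3.34 (SE 0.17.) Only 5 reads lay on Ly6a in the PBS-treated library of mouse 2, and 77 in the LDL-treated one. The lncRNA Gm28068 shares 223 exon bases with Ly6a on the other strand and had normalized counts of at most 14.6.

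**Figure D1:**
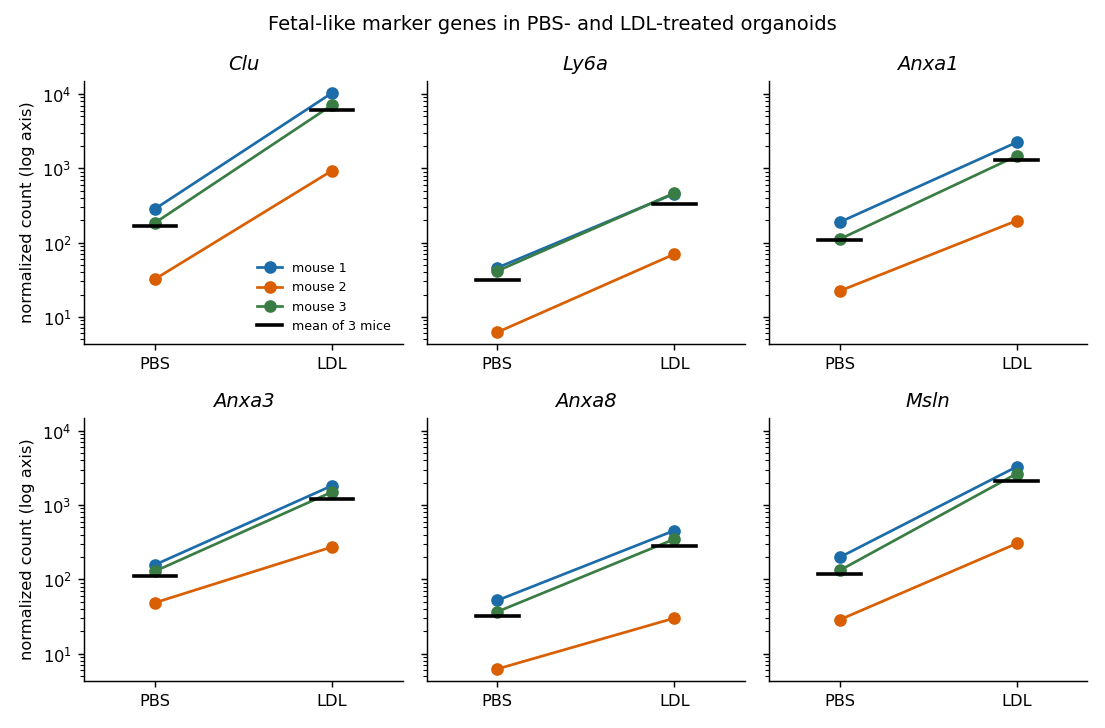
Normalized counts (log axis) of the 6 genes in PBS- and LDL-treated organoids, with each mouse joined by a line and the mean of 3 mice as a bar. Every line climbs, and mouse 2 lies lowest in both treatments for each gene.

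For 5 of the 6 genes the treatments did not overlap, while 11.9% of all genes tested had every LDL-treated library above every PBS-treated one. In every mouse the LDL-treated library exceeded the PBS-treated one for all 6, as it did for 24.2% of all genes tested. By limma with the mouse as a block, with thresholds of 0.05 for the adjusted p-value and 1.5 for the fold, 6 of the 6 genes were called upregulated, against 5.68% of all genes tested. Without the block limma called 0 of them, against 0.878% of all genes tested called up and 0.395% called down, although all 6 had an unadjusted p-value under 0.05, and DESeq2 without the block called 5. Since the members were chosen with this contrast known, nothing is read from these counts. The members' standard errors were 0.11 to 0.25 with the block and 0.73 to 1.10 without it.

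The difference between mice was shared by all 6 genes. Within a treatment the mouse with the highest level exceeded the lowest by 3.24-fold to 8.82-fold with PBS and by 6.63-fold to 15.1-fold with LDL. Mouse 2 was the lowest in both treatments for 6 of the 6 genes, as it was for 16.4% of all genes tested. It was also at most 0.5 times the next mouse in both treatments for all 6, which held for 0.883% of all genes tested. On the log2 scale the SD between mice was 0.90 to 1.64 with PBS and 1.51 to 2.13 with LDL, where the median over all genes tested was 0.16 and 0.23. The SD of the within-mouse log2 ratio was smaller, from 0.09 for Ly6a to 0.61 for Anxa3 and Anxa8, against a median of 0.21 over all genes tested. The members thus differed between mice more in their level than in their fold.

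Reads set a limit on the folds of mouse 2, in which the PBS-treated library held 5 reads each on Ly6a and Anxa8. The exact 95% interval of the fold, which covers counting error only, was 4.63 to 35.7 for Ly6a and 1.87 to 15.8 for Anxa8 in that mouse. For Clu it was 19.6 to 44.3 in mouse 2, 32.2 to 41.1 in mouse 1 and 33.7 to 44.04 in mouse 3, so that the 3 intervals overlapped. Anxa3 was different. Its interval of 4.02 to 8.07 in mouse 2 lay below those of mouse 1 (9.82 to 13.8) and mouse 3 (9.91 to 13.8). The interval of Msln in mouse 2, 6.96 to 17.0, lay below that of mouse 3, 17.2 to 23.7. For Ly6a, Anxa1 and Anxa8 the intervals of the 3 mice overlapped.

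**Figure D2:**
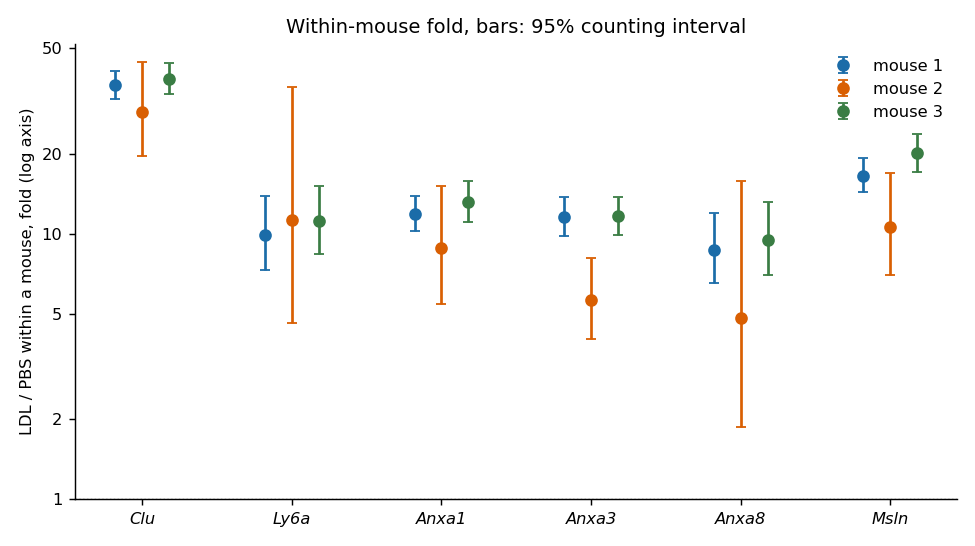
Fold of LDL over PBS within each mouse (log axis) for the 6 genes, with exact 95% intervals that cover counting error only. Clu lies between 28.8 and 38.4, above every value of the other genes, and the interval of Anxa3 in mouse 2 lies below those of the other mice.

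The proportions between the members differed by treatment. For each 100 normalized counts of Clu there were 69.5, 88.5 and 71.4 of Msln with PBS and 31.7, 32.6 and 37.3 with LDL in mice 1, 2 and 3. Anxa1 had 66.3, 69.2 and 60.4 per 100 of Clu with PBS and 21.7, 21.2 and 20.7 with LDL. For Anxa3 the value was 55.2, 150 and 69.6 with PBS and 17.6, 29.3 and 21.1 with LDL, so that Anxa3 exceeded Clu in the PBS-treated library of mouse 2. In every mouse the ratio of each of these 3 genes to Clu was lower with LDL, while within a treatment the ratio of Anxa1 to Clu was nearly the same in mice whose levels differed widely. Per kilobase of exon, the mean normalized count with LDL was 1088 ± 849 (SD, n = 3) for Clu, 462 ± 348 for Msln and 417 ± 330 for Anxa1. It was 193 ± 132 for Anxa3, 147 ± 117 for Anxa8 and 71.0 ± 48.5 for Ly6a. With PBS the order began with Anxa1 at 34.4 ± 26.7 per kilobase, followed by Clu at 29.7 ± 22.6 and Msln at 26.5 ± 19.0. Anxa3 at 17.95 ± 9.08, Anxa8 at 16.8 ± 12.4 and Ly6a at 6.72 ± 4.69 followed. Mouse 2 with PBS had another order, beginning with Anxa3 at 7.81, Anxa1 at 7.16, Msln at 6.35 and Clu at 5.74 per kilobase. In the order of means of either treatment, neighboring genes differed by less than the larger of their SDs between mice. These SDs hold the difference in level between mice that the genes share, so they do not measure the order within a mouse. With LDL, Clu and Msln had 1837 and 729 per kilobase in mouse 1, and 165 and 67.5 in mouse 2.

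Promoter windows were read from a RefSeq table on GRCm38.p6, which held 2 of the 6 members, Anxa1 and Anxa8. They are shown because these genes were higher together with LDL, and each runs from 250 bases before to 50 bases after the gene's start. Capitals mark a match to GGAATG, the core recognized by TEAD factors, the DNA-binding partners of YAP, on either strand. The Anxa1 window is chr19:20390622-20390921 on the minus strand and the Anxa8 window is chr14:34085729-34086028 on the plus strand.
Anxa1: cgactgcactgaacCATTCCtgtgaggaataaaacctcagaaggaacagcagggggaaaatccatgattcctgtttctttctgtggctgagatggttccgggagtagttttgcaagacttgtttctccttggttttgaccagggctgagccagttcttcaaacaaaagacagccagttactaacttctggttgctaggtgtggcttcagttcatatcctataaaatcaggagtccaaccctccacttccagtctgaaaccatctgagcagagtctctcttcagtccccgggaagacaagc
Anxa8: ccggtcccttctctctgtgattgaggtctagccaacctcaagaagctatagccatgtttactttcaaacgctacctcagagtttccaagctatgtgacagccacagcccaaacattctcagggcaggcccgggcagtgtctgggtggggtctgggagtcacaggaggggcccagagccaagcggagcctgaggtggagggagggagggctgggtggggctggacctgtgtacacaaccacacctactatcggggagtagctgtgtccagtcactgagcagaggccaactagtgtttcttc
The match in Anxa1 begins 236 bases before the start and is on the other strand, as CATTCC. A match to GGAATG on either strand was found in 14.7% of the 32851 windows of the table. Neither window held TGANTCA, an AP-1 motif present in 7.81% of windows, or a direct-repeat PPAR response element, present in 0.0396%.

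Beside the members, 25 genes known from fetal spheroids or regenerating epithelium were examined. This list and those below were chosen with earlier results of these data known, so their counts are a description. Of the 25 genes, 23 passed the filter on low values. Only through their LDL-treated values did 3 of the 23 pass, and 2 of these 3 are among the genes raised. LDL raised 18 of the 23 and lowered none (limma with the mouse as a block), where 5.68% of all genes tested were upregulated and 3.46% were downregulated. The median log2 fold change of the 23 genes was 2.45, against -0.02 over all genes tested. Without the block limma called 0 of the 23, of which 19 passed the fold threshold with an unadjusted p-value under 0.05, and DESeq2 without the block called 19. The count was 11 when mouse 3 was left out. The fetal-like genes Gja1 and Spp1 stayed under the filter, with normalized counts of at most 2.73 and 4.88.

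Several genes of this list encode surface proteins. Ly6d, a relative of Ly6a in the same gene cluster, had normalized counts of 39.8, 4.97 and 49.7 with PBS and 927, 97.3 and 1104 with LDL. Its log2 fold change was 4.33 (SE 0.17.) Plaur, the receptor of the plasminogen activator urokinase, rose from 117, 32.3 and 111 to 1411, 281 and 1378, a log2 fold change of 3.43. Cldn4 and Emp1, a tight junction claudin and an epithelial membrane protein, rose by 2.78 and 2.46 on the log2 scale. Tnfrsf12a, the receptor of the cytokine TWEAK, rose by 1.28. Ly6e was not called, with a log2 fold change of 0.46.

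Secreted products formed the next group. Il1rn, an antagonist of the interleukin-1 receptor, rose from 234, 24.9 and 196 to 4515, 333 and 3839 normalized counts, a log2 fold change of 4.08 (SE 0.13.) The alarmin Il33 rose by 4.27 on the log2 scale with a standard error of 0.56. Its within-mouse difference was 7.32-fold in mouse 2 and 86.8-fold in mouse 3, where the PBS-treated library held 2 reads on the gene. Areg and Ereg, ligands of the EGF receptor, rose by 2.64 and 2.38, and the laminin chain Lama3 by 3.89. Mouse 2 again had the smallest response for these genes, and Lama3 was 3.13-fold higher with LDL in mouse 2 and 37.0-fold in mouse 1.

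Of the intracellular members of the list, some were called upregulated and others were not called. Sprr1a, a squamous cornified envelope protein known from regenerating gut, had normalized counts of 17.4, 7.46 and 26.9 with PBS and 1167, 70.9 and 707 with LDL, a log2 fold change of 4.58 (SE 0.46.) S100a6 and S100a11, small calcium-binding proteins, rose by 2.92 and 2.53, and the keratin Krt7 rose by 1.397. The annexins Anxa2 and Anxa5, which are not among the 6 markers, rose by 1.38 and 1.22. S100a10, Marcksl1, Tubb6 and Basp1 were not called, with log2 fold changes between 0.52 and 1.15. In mouse 2, Tubb6 was at 0.949-fold and Basp1 at 0.488-fold with LDL. Adjusted p-values of the 18 genes called were between 1.03e-05 and 0.0173 (limma with the mouse as a block), and between 0.0617 and 0.201 without the block. Mouse 2 was the lowest in both treatments for 18 of the 23 genes, where this held for 16.4% of all genes tested.

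**Figure D3:**
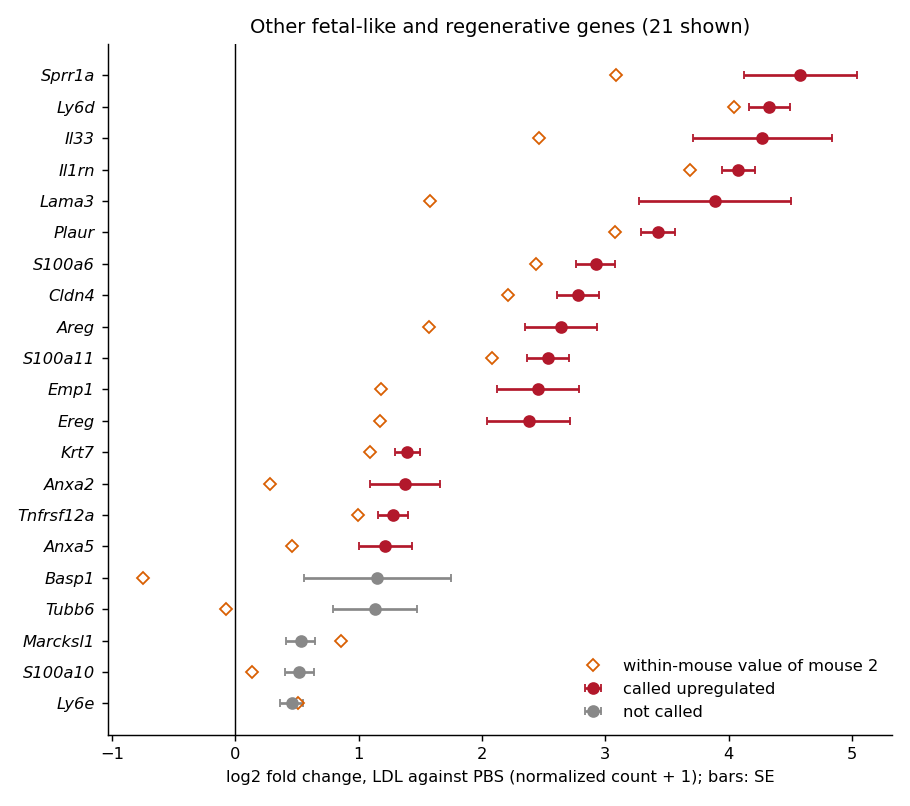
Log2 fold changes of LDL against PBS with standard errors for 21 of the 23 tested genes of the fetal-like and regenerative list, with the within-mouse log2 ratio of mouse 2 as open diamonds. The 16 called genes shown lie to the right of 0, and mouse 2 lies to the left of all 16 fitted values.

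The annexin family was examined in full, since it holds 3 of the 6 genes. Of the 9 other annexins, LDL raised 4 and lowered none (limma with the mouse as a block). Over all genes tested, this fit called 5.68% up and 3.46% down. Without the block limma called 0 of the annexins, with 4 at an unadjusted p-value under 0.05. DESeq2 called 2 with the block and 4 without it, and 1 was called by limma without mouse 3. Anxa10, which is known from gastric epithelium, had the values most like those of the markers, at 234, 39.8 and 204 with PBS and 3533, 441 and 3324 with LDL. Its log2 fold change was 3.79 (SE 0.13) (limma with the mouse as a block, adjusted p = 1.03e-05). Anxa9 rose by 0.99, from a mean of 30.4 to one of 60.2 normalized counts. The remaining annexins, Anxa4, Anxa6, Anxa7, Anxa11 and Anxa13, had log2 fold changes between -0.14 and 0.43 and were not called. Of these, Anxa4 had normalized counts of 13931 to 18126 over the 6 libraries.

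**Figure D4:**
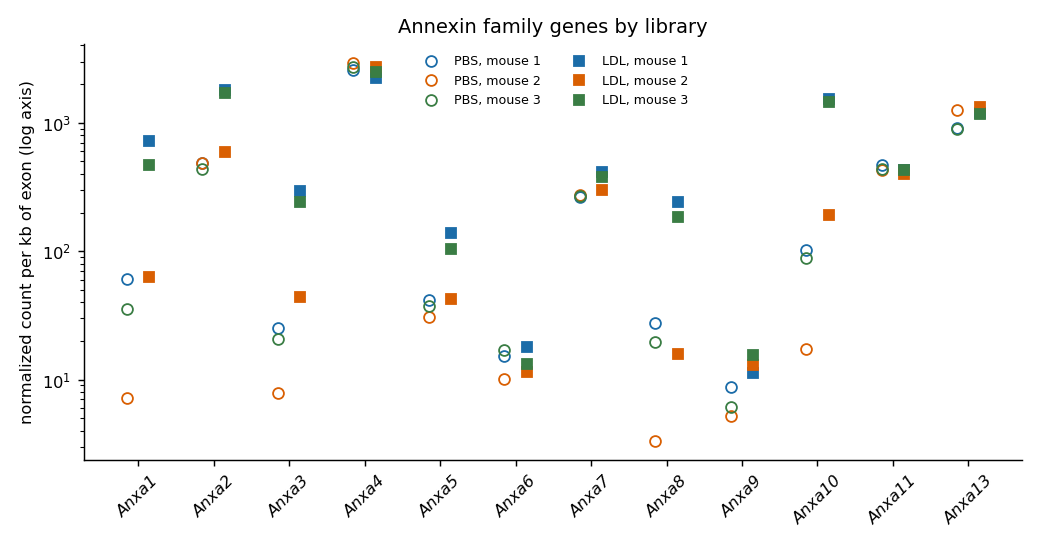
Normalized counts per kilobase of exon (log axis) of 12 annexin genes in each library, with PBS as open circles and LDL as filled squares. Anxa1, Anxa3, Anxa8 and Anxa10 lie higher with LDL and lowest in mouse 2, while Anxa4, Anxa11 and Anxa13 lie close together in all libraries.

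Ly6a lies in a cluster of related genes on chromosome 15. Of 17 other genes of this cluster 7 passed the filter. LDL raised 5 and lowered none (limma with the mouse as a block), against 5.68% up and 3.46% down of all genes tested. Of these 5, 4 (Gml, Ly6m, Lynx1 and Psca) had a PBS mean under 10 and passed the filter only through their LDL-treated values, so the count is no support for a rise of the cluster. Without the block limma called 0, with 5 at an unadjusted p-value under 0.05, and DESeq2 without the block called 5. The count was 3 without mouse 3. Psca, the prostate stem cell antigen, rose from 16.3, 1.24 and 12.2 to 285, 25.5 and 274 normalized counts, a log2 fold change of 3.996. Lynx1, which modulates nicotinic receptors, rose from 14.3, 2.49 and 12.2 to 111, 30.9 and 84.5, a log2 fold change of 2.92. The PBS-treated libraries held at most 1 read on Gml, and its LDL-treated values were 28.1, 3.64 and 27.6. Ly6c1 and Ly6c2, close relatives of Ly6a in blood and endothelial cells, had normalized counts of at most 23.2 and 6.10 and were not tested.

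Of 5 tested receptors and partners of the encoded proteins, LDL raised S100a11, given above as a fetal-like gene, and lowered Vldlr. Over all genes tested, 5.68% were called up and 3.46% down (limma with the mouse as a block). Vldlr, a lipoprotein receptor that can bind clusterin, fell from 619, 532 and 445 to 271, 346 and 345 normalized counts, a log2 fold change of -0.72 (limma with the mouse as a block, adjusted p = 0.0189, and 0.0753 without the block). It was called in neither direction without mouse 1 or without mouse 3. Lrp8, another such receptor, had a log2 fold change of 0.38 and was not called. Lrp2 had 140, 0.91 and 53.5 with LDL against 9.19, 1.24 and 4.07 with PBS and was not called. No read lay on Fpr1 or Fpr2, which encode receptors of annexin A1, in any library. Muc16, the binding partner of mesothelin, stayed under the filter at 1.82 to 17.1.

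Gene groups tied to the same markers gave different counts. Of 18 tested genes in a signature of YAP and TEAD activity, LDL raised 10 and lowered none (limma with the mouse as a block). The same fit called 5.68% of all genes tested up and 3.46% down. F3, Ccn2, Igfbp3 and Myof had log2 fold changes of 3.63, 3.22, 2.74 and 2.22, and of the 10 genes Ccn2 and Igfbp3 passed the filter only through their LDL-treated values. Without mouse 3 only F3 was called, and limma without the block called Amotl2 alone. Of 8 tested interferon-stimulated genes, a group to which Ly6a responds in other settings, LDL raised Rsad2 and Ifit2 (log2 fold changes of 2.26 and 1.20) and the median was 0.09. Rsad2 passed the filter only through its LDL-treated values. None of the 8 was called without mouse 3.

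Markers of other cell types that can express the 6 genes were summed in each library. Of 7 mesothelial genes, 2 passed the filter, and the sum of all 7 was 25.2 to 47.2 with PBS and 85.5 to 267 with LDL. Most of the difference in mice 1 and 3 lay in Upk1b, a uroplakin of urothelium and mesothelium, which had normalized counts of 16.3, 19.9 and 12.2 with PBS and 229, 27.3 and 240 with LDL. It was not called without mouse 3. Other defining mesothelial genes were near 0, with Wt1 at 4.88 or less, Gpm6a at 1.63 or less and Lrrn4 at 6.69 or less, while Msln itself reached 3281. Upk3b had 4.08, 21.1 and 5.70 with PBS and 4.88, 49.1 and 10.9 with LDL, highest in mouse 2, where Msln was lowest, and it made up most of the difference of the sum in that mouse. The sum of 8 stromal genes was 44.8 to 85.7 with PBS and 30.9 to 89.0 with LDL, and that of 5 endothelial genes was 18.7 to 34.7 and 16.4 to 39.03. For 6 immune cell genes the sum was 38.3 to 49.0 with PBS and 37.3 to 65.2 with LDL. Only 2 stromal, 1 endothelial and 2 immune cell genes passed the filter. None of them was called by limma in either fit, by edgeR or by DESeq2. The stromal gene Pdgfrb had an unadjusted p-value under 0.05 by limma. With so few genes tested, the calls cannot show whether these 3 lists differed between the treatments. Markers of squamous and gastric epithelium summed to 2.49 to 11.4 with PBS and 10.003 to 29.3 with LDL, and none of the 6 genes passed the filter. The part of these markers in the values of the 6 genes was not tested. Genes of the intestinal epithelium summed to 73382 to 78318 with PBS and 83191 to 106320 with LDL, and Epcam had normalized counts of 20049 to 24334 in every library. Among these the keratins Krt18, Krt20 and Krt8 rose by 0.93, 0.91 and 0.79 on the log2 scale (limma with the mouse as a block), and 0 of them were called by limma without the block, with 3 at an unadjusted p-value under 0.05. Without mouse 3 only Krt18 was called, and Krt20 was also lost without mouse 1. By log2 fold change, 5 of the 8 genes of this list were higher with LDL and 3 were lower. Cdh1 and Vil1 were higher in each mouse, with log2 fold changes of 0.38 and 0.24, and were not called. Epcam, Cdx1 and Cdx2 were lower. Cdx1, a transcription factor of intestinal identity, was at 0.540-fold, 0.823-fold and 0.680-fold in mice 1, 2 and 3 with a log2 fold change of -0.58, was not called, and was called down without mouse 2. Cdx2, its relative, was at 0.727-fold, 1.05-fold and 0.801-fold and was not called.

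**Figure D5:**
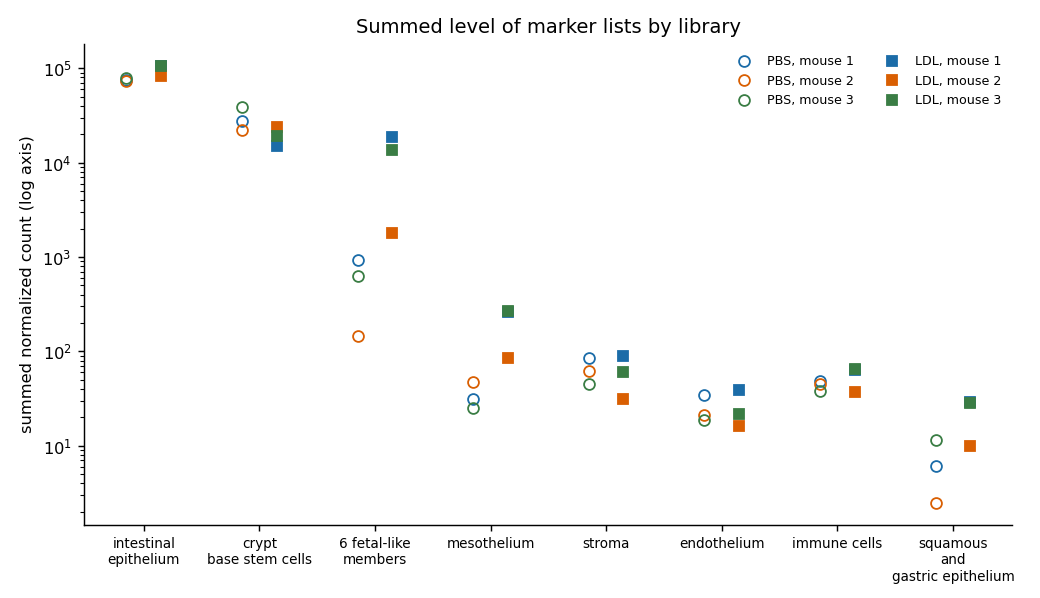
Summed normalized counts (log axis) of marker lists and of the 6 genes in each library, with PBS as open circles and LDL as filled squares. The 6 genes sum to 144 to 927 with PBS and 1805 to 18604 with LDL, while the stromal, endothelial and immune sums are at most 89.0 in every library.

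Genes with the library pattern most like that of Clu were sought among 11933 other genes whose normalized counts averaged at least 100. Likeness was Pearson's correlation of log2 values over the 6 libraries, which share mice and treatments, and is given as a description. The 5 highest were Rbms1, Lama5, Myo19, Zfp618 and Plaur, with values of 0.997 to 0.998. Rbms1, an RNA-binding protein, had normalized counts of 149, 46.0 and 128 with PBS and 879, 244 and 702 with LDL. Lama5, a laminin chain of the epithelial basement membrane, had 217, 75.8 and 182 with PBS and 1004, 379 and 824 with LDL. For the mean standardized value of all 6 members the 5 highest were Atp1b3, Psca, Piezo1, Il1rn and Sdc1, with values of 0.998 to 0.999. Likeness of pattern did not require a large difference. Atp1b3, a subunit of the sodium pump, was 1.14-fold to 1.19-fold higher with LDL, and Piezo1, a mechanosensitive channel, 1.75-fold to 2.10-fold. The 6 members correlated with each other at 0.9499 to 0.997 over the 6 libraries, and at 0.967 to 0.999 once treatment means were subtracted.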

How the data were processed

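Per the labels and the study's methods, RNA from small intestinal crypt organoids of 3 mice was sequenced after 5 days with 50 μg/ml LDL or with PBS. The submitters' processing notes name bcl2fastq 2.20, STAR, featureCounts, DESeq2 and GRCm39, and the annotation release, the strand setting and the DESeq2 design are not given in the sources used here. The deposited signal values are gene counts that the authors divided by a size factor for each library. Multiplying back gave whole reads, within 0.01 reads, for 100% of values above 0.

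Genes whose normalized counts averaged 10 or more (18459 of 55416) were tested as log2(normalized count + 1) with limma 3.58.1 and Benjamini-Hochberg adjustment, with the mouse as a block. Fold changes on this scale understate those of low genes. Calls required an adjusted p-value below 0.05 together with more than 1.5-fold change. The labels give same-numbered libraries 1 animal identifier. Their deviations from the treatment means correlated at 0.484, 0.421 and 0.462 within mice 1, 2 and 3. All pairs of different mice correlated negatively. Subtracting a mean of 3 libraries favors that sign, so it is no further support for the pairing. On the recovered reads, edgeR 4.0.16 with the block called 1171 genes up and 588 down. DESeq2 1.42.0, a fit without the block, other filters, pseudocounts and scalings, and leaving out each mouse were tried as alternatives, and the fit was tested on simulated data. With 3 mice, precision is limited by the number of mice, and for low genes by reads. Exact binomial intervals cover counting error only, since reads carry no molecular identifiers.

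The members, gene lists and tests were chosen with earlier results of these data known. Named are the members, called genes of the fetal-like and annexin lists, up to 4 called genes of each other list with the largest change, genes whose annotation overlaps a member, and the 5 genes most like Clu and most like the members' mean. Some genes that this rule names are counted in their list but not reported here by name. Other list genes and Rn18s-rs5 were named after their values were seen. Symbols came from GENCODE M39, in which 54749 identifiers matched. Promoters came from RefSeq on GRCm38.p6 and were not combined with GRCm39 coordinates.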

Additional observations from a re-analysis of the deposited data

How the results depend on the processing

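With the mouse as a block, limma called 1048 genes up and 639 down. Without the replicate block it called 162 up, 73 down and 0 of the 23 fetal-like genes, and DESeq2 with no replicate block called 348 down. Leaving out each mouse in turn gave 265 to 1604 genes up, 77 to 1348 down and 11 to 21 of the fetal-like genes. The lowest of these counts came without mouse 3, and the cause was not tested. With the block, leaving out 1 library is the same as leaving out its mouse, and a fit on 2 mice has few degrees of freedom.

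The log2 fold changes of the 6 members were positive in 78 of 78 values over 13 alternatives. They were 4.99 to 5.22 for Clu, 3.70 to 4.18 for Msln, 3.32 to 3.64 for Anxa1, 3.00 to 3.53 for Anxa3, 2.58 to 3.16 for Anxa8 and 3.08 to 3.43 for Ly6a, lowest for Ly6a at a pseudocount of 5. Depth limits the folds of Ly6a and Anxa8 in mouse 2.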

Other observations

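Markers of adult crypt base stem cells did not move as a group. Of 8 tested genes, LDL raised 2 and lowered 3 (limma with the mouse as a block), where 5.68% and 3.46% of all genes tested were called, and the median log2 fold change was -0.18. Without the block limma called 0, with 2 up and 3 down at an unadjusted p-value under 0.05, and DESeq2 with the block called 2 up and 0 down. Tnfrsf19, a receptor of the TNF family, and Ascl2, a transcription factor of crypt base stem cells, rose by 1.51 and 1.22 on the log2 scale, and Ascl2 was not called without mouse 3. Olfm4, a secreted glycoprotein of these cells, had normalized counts of 9379, 6073 and 16644 with PBS and 2858, 6039 and 4864 with LDL, a log2 fold change of -1.17. Mouse 2, which had the lowest levels of the 6 fetal-like markers, was at 0.994-fold for Olfm4, while mice 1 and 3 were at 0.305-fold and 0.292-fold. Mouse 2 was also nearest to 1 for Smoc2, at 0.427-fold, 0.907-fold and 0.495-fold, and for Aqp4, at 0.484-fold, 0.982-fold and 0.520-fold. None of the 3 lowered genes was called when mouse 1 or mouse 3 was left out. Lgr5, the receptor by which these cells are best known, had normalized counts of 660.5, 502 and 937 with PBS and 854, 1232 and 683 with LDL and was not called.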
